A study of Homo sapiens with 8 samples.

Results

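The annexins are a family of proteins that bind acidic phospholipids in membranes when calcium rises, through a conserved core of repeated domains and a variable N-terminal tail. They take part in membrane repair, vesicle traffic, exocytosis and the plasminogen system, and several are abundant in epithelial and cancer cells. ANXA9 is an atypical member whose core has lost residues that bind calcium in its relatives. The 10 annexin genes described here were ANXA1, ANXA2, ANXA3, ANXA4, ANXA5, ANXA6, ANXA7, ANXA9, ANXA11 and ANXA13, found by symbol among the 38637 genes of the count table. The set was selected on the rise of ANXA9 in these same libraries, in both treatment comparisons, to see whether its change was shared by the abundant annexins. The ANXA9 values of those 2 comparisons are therefore a description and carry no test.

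RNA was sequenced from SW1990 cells, an established human pancreatic adenocarcinoma line, in 4 groups of 2 libraries. In the first experiment the cells carried an empty plasmid (Vector) or a plasmid for overexpression of EBF2, an early B-cell factor family transcription factor (EBF2-OE). In the second they received the carrier alone (Vehicle) or GSK-LSD1, an inhibitor of the histone demethylase LSD1, at a dose the labels give as 2000 µM. The study names lower doses of this compound in its other assays, and the unit of the label could not be checked. All groups share this 1 cell line, and the study describes the sequenced cells as SW1990 carrying luciferase. The labels number the libraries 2 and 3 in the first experiment and 1 and 2 in the second, and no source says that they came from separate cultures, so p-values measure the spread between libraries, which may be technical.

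Total counts ran from 20453362 to 27054876 per library. EBF2 had 28 and 28 counts in the Vector libraries against 5818 and 90100 in the EBF2-OE libraries, so the overexpressed gene was high in both but far from equal. Of 9 epithelial and ductal markers, 6 were above 10 CPM (counts scaled to library size, by TMM over all 8 libraries) in every library. KRT19, EPCAM and CDH1, which commonly mark ductal epithelium, were below 3 CPM in every library. All 4 acinar and 3 endocrine markers and 4 of 5 leukocyte markers were also below 3 CPM, while 3 of 5 fibroblast markers were above 10 CPM. Of 3 endothelial markers PECAM1 and VWF were below 3 CPM and CDH5 reached 6.89 CPM. In bulk RNA, fewer cells of a type and less RNA per cell cannot be told apart.

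ANXA9 lies at chr1:150982286-150996063 on the forward strand (GRCh38), and its MANE Select transcript, the reference transcript agreed by NCBI and Ensembl, has 14 exons and 1551 bases. ANXA6, whose core is duplicated, has 26 exons. The promoters of 9 of the 10 genes were matched in RefSeq (GRCh38.p14), each as the 250 bases before and 50 after the MANE Select start. Those of ANXA9, ANXA1 and ANXA11 follow. They were taken because ANXA9 chose the set, ANXA11 was the only tested annexin called lower with GSK-LSD1, and ANXA1 was the poorest in CpG. Capitals mark CpG dinucleotides. ANXA9 is chr1:150982042-150982341 on the forward strand, ANXA1 is chr9:73151615-73151914 on the forward strand and ANXA11 is chr10:80205488-80205787 on the reverse strand.
ANXA9: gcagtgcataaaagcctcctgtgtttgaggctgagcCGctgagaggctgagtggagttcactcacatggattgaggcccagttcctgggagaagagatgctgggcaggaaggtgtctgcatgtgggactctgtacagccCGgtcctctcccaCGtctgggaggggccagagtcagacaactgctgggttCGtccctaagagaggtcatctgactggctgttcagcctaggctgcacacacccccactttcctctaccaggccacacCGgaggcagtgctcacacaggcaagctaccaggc
ANXA1: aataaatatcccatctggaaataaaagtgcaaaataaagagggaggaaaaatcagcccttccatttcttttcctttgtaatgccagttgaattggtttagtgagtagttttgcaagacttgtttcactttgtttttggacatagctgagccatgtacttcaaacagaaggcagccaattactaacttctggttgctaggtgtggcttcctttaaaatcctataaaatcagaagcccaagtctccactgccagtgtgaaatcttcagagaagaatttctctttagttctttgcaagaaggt
ANXA11: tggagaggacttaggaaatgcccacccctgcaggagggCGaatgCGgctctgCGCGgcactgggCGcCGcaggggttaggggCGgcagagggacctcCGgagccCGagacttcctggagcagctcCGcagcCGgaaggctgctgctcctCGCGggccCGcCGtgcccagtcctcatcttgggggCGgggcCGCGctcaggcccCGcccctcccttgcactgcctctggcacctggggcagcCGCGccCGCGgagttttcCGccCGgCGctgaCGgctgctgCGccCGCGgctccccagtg

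The ANXA9 promoter held 5 CpG and the ANXA1 promoter 0, against a median of 14 over 35116 RefSeq promoters of the same length. The other 7 annexin promoters held 23 (ANXA7) to 36 (ANXA5), with 30 in ANXA11. The letters CCCNNGGG, the core of the site that early B-cell factors bind, were found on either strand in the promoter of ANXA6 alone among the 9, and in 19.1% of all promoters. RefSeq also lists promoters of ANXA4, ANXA6 and ANXA11 away from the MANE Select start, which were not used. Each of these genes had such a promoter with the core. The same core with a T before it and an A after it, which contains the shorter motif, was in 0 of the 9 and in 1.21% of all promoters. TATAAA, searched on both strands, was in ANXA1 and ANXA2 of the 9, in an ANXA11 promoter that was not used, and in 11.5% of all promoters. These matches describe the letters of 300 bases and say nothing of binding.

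Levels between annexins were compared as deposited TPM (a level per gene length, scaled to the same sum in each library). ANXA2, which forms a complex with S100A10 and binds plasminogen at the cell surface, was listed at 416 ± 2.51 TPM (SD, n = 2) in Vector and 325 ± 13.3 in Vehicle. ANXA1, the glucocorticoid-responsive annexin that signals through formyl peptide receptors, stood at 414 ± 45.7 in Vector and 306 ± 3.71 in Vehicle. ANXA5, which binds exposed phosphatidylserine, stood at 296 ± 12.3 and 269 ± 3.01. These were the 3 highest annexins in all 4 groups. In Vector and in EBF2-OE the libraries of ANXA2 and ANXA1 overlapped on this scale, and in GSK-LSD1 ANXA5 stood above ANXA1 (295 ± 3.01 against 290 ± 0.0752 TPM).

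ANXA7, ANXA6 and ANXA11 formed the middle of the range, between 48.2 and 118 TPM in single libraries. ANXA7 (synexin, which promotes granule fusion) was above ANXA6 in Vector and EBF2-OE and below it in Vehicle on this scale, and the libraries of the 2 genes overlapped in GSK-LSD1. ANXA4 and ANXA3 lay between 19.5 and 31.7 TPM and overlapped each other in Vector and Vehicle. ANXA9 was the lowest annexin with counts in 3 groups, at 6.70 ± 0.787 TPM in Vector, 9.90 ± 1.88 in EBF2-OE and 17.2 ± 0.0365 in Vehicle. In GSK-LSD1 it reached 29.4 ± 0.538 TPM, above ANXA3. On this scale only, it also lay inside the range of ANXA4 (28.3 and 31.7 TPM). ANXA13, an annexin of intestinal and kidney epithelium, had 0 counts in every library, which allows up to 3 counts or 0.111 to 0.147 CPM per library.

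The 10 genes together took 0.176% to 0.200% of the counts of a library. ANXA2 alone made up 27.6% of their summed TPM on average. The gene length used for the deposited TPM is 3.39 times the MANE Select length for ANXA2, and with that shorter length its share was 47.2%, an alternative added after the data were seen. The order of other levels also depended on this length, which is 2.999 times the MANE Select length for ANXA4 and 1.99 times for ANXA7 but 1.28 times for ANXA9 and 1.05 times for ANXA6. As CPM per 1000 bases of MANE Select transcript, ANXA2 was at 531 ± 21.8 (SD, n = 2) in Vector and ANXA1 at 185 ± 26.9, with no overlap in any group. ANXA7 was then above ANXA6 in all 4 groups, at 68.8 ± 0.867 against 43.8 ± 0.416 in Vehicle. In GSK-LSD1 ANXA9 was at 14.7 ± 0.0139, above ANXA3 at 11.3 ± 1.18 and below ANXA4 at 35.1 ± 3.53. ANXA2P2, an ANXA2 pseudogene with near-identical sequence, was at 0.651 to 1.44 CPM, far below ANXA2.

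The ANXA9 counts were 112 and 110 for Vector, 131 and 191 for EBF2-OE, 328 and 356 for Vehicle, and 525 and 518 for GSK-LSD1. As CPM these were 5.30 and 4.71, 6.51 and 8.54, 13.1 and 12.9, and 22.8 and 22.8. The EBF2-OE libraries were above both Vector libraries and the GSK-LSD1 libraries above both Vehicle libraries, yet the higher EBF2-OE library was still below the lower Vehicle library. The EBF2-OE library with more EBF2 counts was also the one with more ANXA9 counts. These ANXA9 values entered the choice of the set, and the group has too few libraries for this order to speak to dose. A link between EBF2 level and ANXA9 level was not tested.

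The log2 fold change of ANXA9 was 0.60 (SE 0.255) for EBF2-OE against Vector and 0.80 (SE 0.0923) for GSK-LSD1 against Vehicle. Without EBF2-OE library 3 the first value was 0.38, and without EBF2-OE library 2 it was 0.78. For GSK-LSD1 the values with 1 library left out ran from 0.79 to 0.82. The EBF2-OE value minus the GSK-LSD1 value was -0.22 (SE 0.228), and it was -0.42 without EBF2-OE library 3, -0.038 without EBF2-OE library 2 and -0.099 without Vector library 2.

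The abundant annexins of the set showed no comparable movement with EBF2-OE. ANXA2 measured 801 and 848 CPM in Vector and 872 and 798 in EBF2-OE. ANXA1 measured 233 and 286 CPM in Vector and 276 and 237 in EBF2-OE. In both genes the ranges of the groups overlapped. ANXA6 was at 93.0 and 102 CPM in Vector and 100.3 and 113 in EBF2-OE, also with overlap. ANXA3, an annexin of neutrophil granules, was at 16.2 and 12.8 CPM in Vector and 12.7 and 11.9 in EBF2-OE, which did not overlap. ANXA4 was at 64.0 and 62.3 CPM in Vector and 69.3 and 64.9 in EBF2-OE, higher without overlap, with a log2 fold change of 0.094 and a 95% interval of -0.19 to 0.38.

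Of the 8 annexins tested, 0 passed an adjusted p of 0.05 in the edgeR test (quasi-likelihood, p-values adjusted by Benjamini-Hochberg), and 0% of the 15560 genes tested did. The overexpressed EBF2, at a log2 fold change of 10.7 (SE 1.55), did not pass either (edgeR adjusted p = 0.9998). Failing this test therefore does not show that a gene was unchanged. At an unadjusted p under 0.05 there were 0 annexins and 208 genes, and over all genes DESeq2 called 7 and limma 0. The 8 log2 fold changes ran from -0.23 in ANXA3 to 0.14 in ANXA6 and 6 were positive, with a median of 0.029 against 0.0035 over all genes. ANXA3 moved to -0.033 without Vector library 2 and to -0.40 without Vector library 3, and ANXA6 to 0.040 without EBF2-OE library 3 and to 0.22 without EBF2-OE library 2. Their 95% intervals reached down to -0.72 in ANXA3 and up to 0.46 in ANXA6, and a 1.5-fold rise (0.58) lay above all 8. A 1.5-fold fall lay inside the interval of ANXA3 only. The spread between libraries was wide in this experiment, with a biological coefficient of variation of 19.0% against 5.87% for GSK-LSD1 and Vehicle.

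With GSK-LSD1, ANXA11 fell and ANXA4, ANXA5 and ANXA7 rose, each by less than 1.5-fold. ANXA11, which tethers RNA granules to lysosomes, measured 254 and 233 CPM in Vehicle and 202 and 195 in GSK-LSD1. Both GSK-LSD1 libraries were below both Vehicle libraries. Its log2 fold change was -0.30 (SE 0.0555, edgeR adjusted p = 0.00465).

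ANXA4, an annexin of secretory epithelia, measured 78.7 and 76.4 CPM in Vehicle and 99.8 and 86.5 in GSK-LSD1. Its log2 fold change was 0.26 (SE 0.0699, edgeR adjusted p = 0.0258). The GSK-LSD1 libraries were both higher, but they lay further apart than the Vehicle libraries, and without GSK-LSD1 library 1 the log2 fold change was 0.16 and the edgeR adjusted p 0.227. An antisense gene, LOC107985770, lies within ANXA4, and since the strand used in counting is not given in the sources used here their reads may not be separated. It was at 0.0447 to 0.362 CPM.

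ANXA7 measured 167 and 170 CPM in Vehicle and 200.4 and 185 in GSK-LSD1, without overlap. The log2 fold change was 0.19 (SE 0.0541, edgeR adjusted p = 0.0309). ANXA5 measured 268 and 266 CPM in Vehicle and 303 and 299 in GSK-LSD1, also without overlap. Its log2 fold change was 0.17 (SE 0.0465, edgeR adjusted p = 0.0277).

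ANXA1, ANXA2, ANXA3 and ANXA6 did not pass the test. ANXA1 was at 194 and 193 CPM in Vehicle and 191 and 186 in GSK-LSD1, with a log2 fold change of -0.045 and a 95% interval of -0.15 to 0.062. ANXA2 was at 641 and 663 CPM in Vehicle and 689 and 639 in GSK-LSD1, and its interval was -0.084 to 0.13. ANXA6 was at 126 and 127 CPM in Vehicle and 123 and 119 in GSK-LSD1, with an interval of -0.17 to 0.044. Both GSK-LSD1 libraries were below both Vehicle libraries in ANXA1 and ANXA6, while those of ANXA2 overlapped. These 3 intervals lay inside 1.5-fold in either direction. ANXA3 was at 15.2 and 15.9 CPM in Vehicle and 17.4 and 14.98 in GSK-LSD1. With its lower counts the interval was wider, at -0.18 to 0.28, but it also lay inside 1.5-fold in either direction.

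Counted together, 3 of the 8 annexins tested were called higher at any fold, where 9.86% of the 16059 genes were, and 1 of 8 was called lower, where 8.87% of genes were. Past 1.5-fold there were 0 of 8 annexins, where 4.57% of genes were called. Their median log2 fold change was 0.037 against -0.0059 over all genes. Fitted with all 8 libraries together, 0 of the 8 annexins were called, with edgeR adjusted p-values of 0.192 for ANXA11 and 0.296 for ANXA4, and over all genes that fit called 117 against 3007. ANXA5 lost its call with any 1 library left out, and ANXA7 without GSK-LSD1 library 1 (edgeR adjusted p = 0.200) or Vehicle library 1 (0.0614). Over 13 settings the adjusted p ran from 1.1e-05 to 0.192 in ANXA11, 8.1e-04 to 0.296 in ANXA4, 0.0208 to 0.387 in ANXA7 and 0.0205 to 0.411 in ANXA5. Marker genes moved in the same comparison. Of 7 epithelial and ductal markers tested 1 rose and 4 fell, their summed level going from 5745 to 5985 CPM in Vehicle to 4636 to 4707 in GSK-LSD1, with KRT7 at a log2 fold change of -0.69 and KRT17 at 0.89. Of 5 fibroblast markers 2 rose (summed level 136 to 138 CPM in Vehicle, 147 to 156 in GSK-LSD1). Of 3 endothelial markers 1 fell (summed level 8.68 to 9.09 against 5.25 to 5.36). Of 2 leukocyte markers tested 1 rose, CD68, from 7.17 and 8.50 CPM in Vehicle to 11.2 and 11.9 in GSK-LSD1. All 5 leukocyte markers summed to 7.73 to 9.51 CPM in Vehicle and 12.7 to 14.02 in GSK-LSD1. The part of these markers in the annexin changes was not tested. Among the leukocyte markers, PTPRC was at 0.0447 to 0.331 CPM and CD3E was at 0 in every library.

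**Figure D1:**
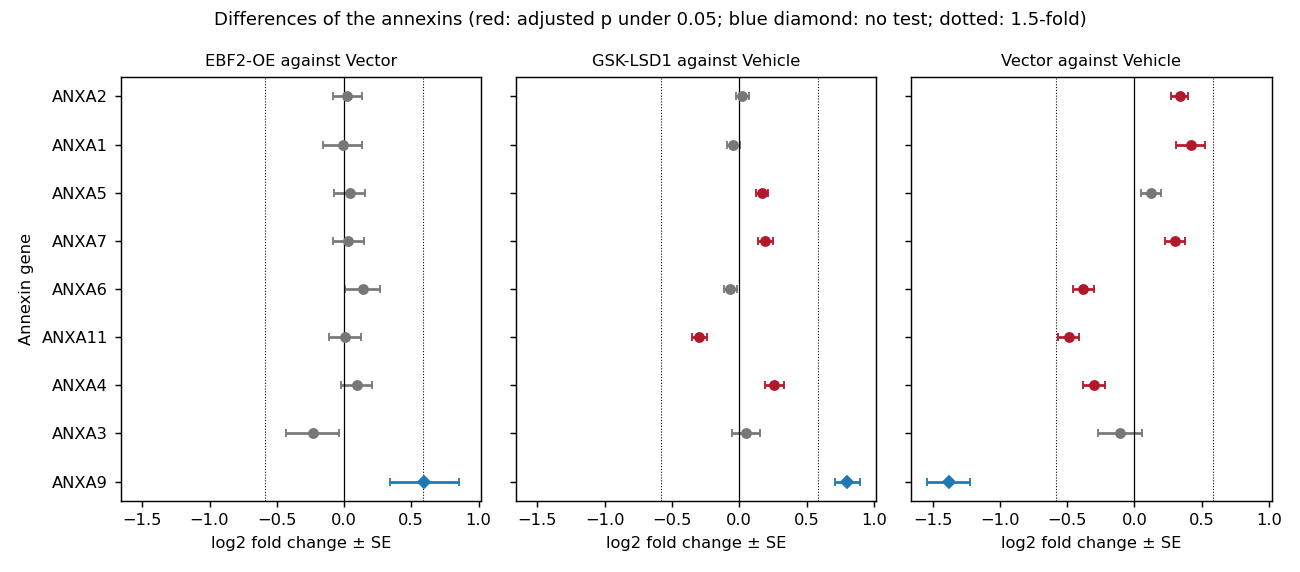
log2 fold change with its standard error for each annexin in the 3 comparisons, with dotted lines at 1.5-fold, red points at an adjusted p under 0.05 and a blue diamond for the ANXA9 values, which carry no test. In the GSK-LSD1 panel ANXA11 sits at -0.30 and ANXA4, ANXA5 and ANXA7 between 0.17 and 0.26, all inside the dotted lines.

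The difference between the 2 effects was also tested in 1 fit. 0 of the 8 annexins and 0% of the 16558 genes passed an adjusted p of 0.05 in edgeR's quasi-likelihood test, while 1 annexin and 1268 genes had an unadjusted p under 0.05, and without the filter on low counts 390 genes passed. That annexin was ANXA11, with an EBF2-OE effect minus GSK-LSD1 effect of 0.29 (SE 0.119, unadjusted p = 0.0371, edgeR adjusted p = 0.616). A fall of ANXA11 particular to GSK-LSD1 was therefore not shown.

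The ANXA9 counts were also set against the other annexins of their own library, which removes the scaling of libraries but restates the values that the choice of the set used. ANXA9 had 2.85 and 2.35 counts per 1000 counts of the other members in Vector, 3.21 and 4.50 in EBF2-OE, 7.54 and 7.38 in Vehicle and 12.5 and 13.2 in GSK-LSD1. This ratio was 1.47-fold higher in EBF2-OE than in Vector and 1.72-fold higher in GSK-LSD1 than in Vehicle. The first log2 difference, 0.56, was 0.31 without EBF2-OE library 3 and 0.80 without EBF2-OE library 2. The other members summed to 1857 and 2007 CPM in Vector and 2028 and 1896 in EBF2-OE, and to 1743 and 1744 in Vehicle and 1825 and 1726 in GSK-LSD1. Both pairs of sums overlapped, and their log2 differences of 0.023 and 0.025 gave two-sided exact permutation p-values of 0.667 and 1, where 0.333 is the smallest that 2 against 2 libraries allow. Between the control groups the sums did not overlap, with Vector above Vehicle by a log2 difference of 0.15. With GSK-LSD1 the sum joins the fall of ANXA11 to the rises of ANXA4, ANXA5 and ANXA7.

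Of the 8 other annexins, 6 differed between the 2 control groups, each by less than 1.5-fold. This comparison uses the same Vector and Vehicle libraries as those above, and vector, vehicle and experiment cannot be told apart in it. Past 1.5-fold there were 0 of the 8, where 16% of the 16019 genes were called. Outside the set, ANXA8 and ANXA8L1 were called lower in Vector past 1.5-fold. Their log2 fold changes were -0.70 (SE 0.113, edgeR adjusted p = 0.0145) and -0.65 (SE 0.172, 0.0431). For ANXA9, whose values in these libraries entered the choice of the set, the log2 fold change was -1.38 (SE 0.157) and is given without a test.

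ANXA1 measured 0.42 higher on the log2 scale in Vector (SE 0.106, edgeR adjusted p = 0.0394), ANXA2 0.34 higher (SE 0.0657, 0.0213) and ANXA7 0.30 higher (SE 0.0748, 0.0381). ANXA11, ANXA6 and ANXA4 were lower, with log2 fold changes of -0.49 (SE 0.0777, edgeR adjusted p = 0.0139), -0.38 (SE 0.0796, 0.0246) and -0.30 (SE 0.0822, 0.0470). Altogether 3 of the 8 were called higher, against 13.6% of genes, and 3 lower, against 13.2% of genes. ANXA5 (0.12, interval -0.069 to 0.31) and ANXA3 (-0.11, interval -0.51 to 0.30) did not pass. Without Vehicle library 1 or Vehicle library 2, 0 of the 8 were called. Without Vector library 2, ANXA5 was called as well (edgeR adjusted p = 0.0126). Over 12 settings the adjusted p of ANXA5 ran from 0.0126 to 0.671.

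Markers differed between the control groups as well. Of 3 endothelial markers 2 were lower in Vector (CDH5 at a log2 fold change of -3.09, VWF at -2.38), with a summed level of 1.41 to 1.65 CPM against 8.68 to 9.09 in Vehicle. Of 5 fibroblast markers 2 were lower (PDGFRB at -1.57), with 118 to 122 CPM against 136 to 138. Of 7 epithelial and ductal markers tested 1 was higher (KRT17 at 1.71) and 2 lower (KRT18 at -0.99), with 4464 to 4575 CPM against 5745 to 5985. CD68 was higher, at 0.96, and the leukocyte markers summed to 14.8 to 17.02 CPM against 7.73 to 9.51. Their part in the annexin differences was not tested.

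**Figure D2:**
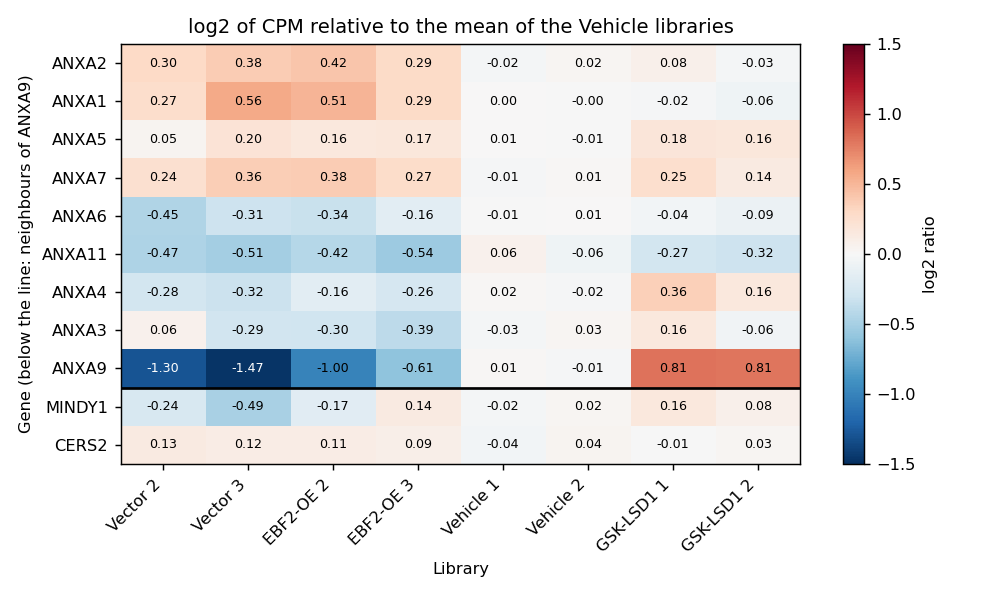
log2 of the CPM of each annexin in each library relative to the mean of the 2 Vehicle libraries, with the 2 nearest protein-coding neighbours of ANXA9 below the line. ANXA9 runs from -1.47 in a Vector library to 0.81 in both GSK-LSD1 libraries, the widest range of the 9 annexins. ANXA9 was chosen for its change in these libraries, so this rank is a description only.

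The genes beside ANXA9 were read in the same libraries. MINDY1, a deubiquitinase on the opposite strand, has its own end 472 bases beyond the end of ANXA9, with the 2 genes running towards each other. It measured 18.8 and 15.8 CPM in Vector, 19.7 and 24.5 in EBF2-OE, 21.8 and 22.6 in Vehicle and 24.7 and 23.5 in GSK-LSD1. Its log2 fold change was 0.36 (SE 0.194) for EBF2-OE and 0.11 (SE 0.0846) for GSK-LSD1, with edgeR adjusted p-values of 1.00 and 0.388. CERS2, a ceramide synthase 7450 bases before ANXA9, stayed between 214 and 241 CPM.

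The genes whose log2 CPM was most like that of ANXA9 over the 8 libraries, among 16557 genes, were RCN3 (Pearson r = 0.992), PKP2 (0.991), GABARAP (0.990), PLEKHB1 (0.989) and PSG9 (0.989). These 8 points share the difference between the 2 experiments, so the values describe a common order of the groups. On the same measure ANXA4 had an r of 0.94, ANXA6 0.83, ANXA11 0.56 and ANXA3 0.55, while ANXA5 had -0.031, ANXA7 -0.55, ANXA2 -0.86 and ANXA1 -0.89. RCN3, a calcium-binding protein of the secretory pathway, was at 43.97 and 41.1 CPM in Vector and 101 and 94.4 in GSK-LSD1. PSG9 and PLEKHB1 were low, reaching 6.28 and 1.48 CPM at most.

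Annexin-related genes that are no members were read from lists of partners and receptors, copines, ESCRT-III with VPS4, and synaptotagmins. With EBF2-OE, 0 genes of any list passed edgeR's test. With GSK-LSD1, 3 of the 19 partners and receptors tested rose and 3 fell at any fold, with a median log2 fold change of 0.011 against -0.0059 over all genes, of which 9.86% rose and 8.87% fell. PLAT, the tissue plasminogen activator that ANXA2 binds, measured 19.9 and 18.5 CPM in Vehicle and 35.9 and 35.4 in GSK-LSD1, and was the 1 gene of the list past 1.5-fold, where 4.57% of all genes were called (log2 fold change 0.89, SE 0.0798, edgeR adjusted p = 5.6e-05). PLAUR, the urokinase receptor, rose by 0.29 (SE 0.0813, edgeR adjusted p = 0.0309) and S100A6 by 0.22 (SE 0.0451, 0.00664). AHNAK, a giant scaffold of the ANXA2 complex, fell by 0.40 (SE 0.0462, edgeR adjusted p = 2.5e-04), and CAPNS1 and MYOF fell by 0.21 and 0.16.

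S100A10, the ANXA2 partner, was at 284 and 250.2 CPM in Vehicle and 238 and 236 in GSK-LSD1 (log2 fold change -0.18, SE 0.0611, edgeR adjusted p = 0.0719). S100A11, the ANXA1 partner, was at 210 and 210 CPM in Vehicle and 234 and 205 in GSK-LSD1, and its log2 fold change was 0.059 (SE 0.0627, edgeR adjusted p = 0.564). FPR1 had 0 counts in every library and FPR2 at most 1, so the ANXA1 receptors were not detectable at this depth. Among the other calcium-dependent membrane genes, CPNE3 rose and CPNE1 fell of 5 copines tested, CHMP2A rose of 14 ESCRT-III and VPS4 genes, and 0 of 9 synaptotagmins passed, beside 9.86% of all genes higher and 8.87% lower.

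Annexin genes outside the set were also present. ANXA8, an annexin of squamous epithelia, was at 24.8 and 27.8 CPM in Vector, 27.5 and 39.2 in EBF2-OE, 40.02 and 44.9 in Vehicle and 51.6 and 44.3 in GSK-LSD1. ANXA8L1, its near-identical copy, ran from 16.2 to 33.7 CPM, and because reads can be shared between the 2 their split is uncertain. For ANXA10 the Vehicle libraries held 1 and 2 counts and those with GSK-LSD1 held 11 and 6, below the count needed for a test.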

How the data were processed

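RNA-seq of 8 SW1990 libraries was read from 1 table of 38637 genes. The authors deposited raw counts per gene and TPM, and the deposited TPM equalled counts over the listed gene length scaled to the same sum in each library; the submitters' processing notes name hg38, and the strand setting is not given in the sources used here. Groups were taken from the sample labels. Counts were tested with edgeR 4.0.16 (TMM scaling, filterByExpr with a minimum count of 10, quasi-likelihood F-test, Benjamini-Hochberg adjustment over all genes tested) on the 4 libraries of a comparison, and on all 8 for the difference of effects. A gene was called at an adjusted p under 0.05, with or without a fold change above 1.5. The scripts were tested on simulated data. DESeq2 1.42.0, limma 3.58.1 on log2(CPM + 1) and log2(CPM + 0.1), total-count scaling, no filter, a minimum of 10 counts in every library, 1 fit of all 8 libraries, a replicate block and each library left out were alternatives. Intervals are 95% and cover counting error and the spread between libraries only. The libraries of a group were distinct (chi-square per degree of freedom 4.23 to 23.9).

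All 10 annexin genes are named, with the 5 genes most like ANXA9, its neighbours, and called genes of the lists. The members and lists were chosen with earlier results of these data known, and markers at 10 and 3 CPM were read with the data in view. The test of ANXA9 between Vector and Vehicle was run, and its p is not given because those libraries entered its choice. Promoters came from RefSeq (GRCh38.p14). Amino acid sequences were not used here.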

Additional observations from a re-analysis of the deposited data

How the results depend on the processing

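ANXA9 stayed higher in both treatment comparisons under every alternative run, from 0.38 to 0.78 with 1 library left out for EBF2-OE. Since ANXA9 was chosen for this rise in the same libraries, that result restates the choice and is no support for it. For EBF2-OE against Vector, 0 annexins were called under any setting. ANXA11, at 0.0086, changed sign to -0.0028 without the filter on low counts and to -0.011 with total counts. With 1 library left out, the log2 fold change ran from -0.14 to 0.14 in ANXA1, -0.038 to 0.081 in ANXA2, -0.016 to 0.11 in ANXA5, -0.019 to 0.089 in ANXA7 and -0.050 to 0.061 in ANXA11, all across 0. The difference of effects ran from -0.092 to 0.18 in ANXA1 and -0.075 to 0.060 in ANXA2. For GSK-LSD1 against Vehicle, 4 annexins were called, 0 in the fit of all 8 libraries, and 1 to 3 with 1 library left out. With the replicate block 2 were called, ANXA5 (adjusted p = 0.0712) and ANXA7 (0.0515) being lost in edgeR. The labels do not say what the replicate numbers mark and there are only 2 pairs per comparison, so the samples were not taken as paired (correlations of deviations 0.350 and -0.014). ANXA2 ran from -0.027 to 0.077 and ANXA3 from -0.055 to 0.15. For Vector against Vehicle, 3 of the 8 annexins other than ANXA9 were called higher and 3 lower. ANXA3 ran from -0.29 to 0.067 with 1 library left out. ANXA4 lost its call in DESeq2 (adjusted p = 0.0578), and in edgeR without the filter (0.0571) and in the fit of all 8 libraries (0.0507). The share of ANXA2 in summed level moved from 27.6% to 47.2% with MANE Select lengths. Over all genes, EBF2-OE gave 0 calls, 75 without the filter, 7 in DESeq2 and 2 in the fit of all 8 libraries, and GSK-LSD1 gave 3007, 1919 in DESeq2 and 117 in the fit of all 8 libraries. The cause of these shifts was not tested. With 2 libraries per group, an arm left with 1 library is assumed to vary like the other. Over single genes, 380 values stayed the same, 30 lost the call, 1 gained it, 20 changed sign and 1 moved. The same meant an unchanged direction and call. For ANXA9 in the treatment comparisons and their difference, which have no call, it meant a shift smaller than the spread between libraries. The tally also holds ANXA9 between Vector and Vehicle, which is given without a test.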
